A study of Mus musculus with 6 samples.

Results

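The miRNAs described here are those with a number of 1000 or above in their name and a summed count of at least 5 over 6 mouse extracellular vesicle (EV) libraries. The names miR-1224, miR-1291, miR-1839, miR-1843, miR-3068, miR-5121 and miR-6516, with both arms, were left out. The 130 members were taken from 1966 mature miRNAs listed, of which 471 reached a summed count of 5. The members were chosen by this summed count, which runs over both sources together. At that edge, 12 members had a summed count of exactly 5, and 25 miRNAs with numbers in the same range stood just outside, from 4 to the highest value of 4.94. A further 734 of the 1102 eligible names were at 0 in every library.

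The data hold 3 libraries from EVs released by colon explants over 16 hours (Colon EV) and 3 from EVs of bone marrow-derived dendritic cells grown with GM-CSF for 7 days (BMDC EV). All 6 carried the label Rab27A fl/fl, a floxed and therefore not in itself deleted allele of a GTPase that docks vesicle-filled bodies at the cell membrane, and the labels name no Cre driver, treatment or age for these libraries. Colon EVs were taken from fraction 2 of an iodixanol gradient. The labels and the methods give this gradient for the colon alone, while the study's account of its results names it for both sources, so whether purification differed is not settled here. The methods describe exosome-depleted serum for explants and complete medium for BMDCs, so that source and medium cannot be told apart. A colon explant holds epithelium, stroma and immune cells, while BMDCs are grown in a culture of bone marrow cells alone. Total counts ran from 173348 to 645290 in Colon EV libraries and from 83980 to 178443 in BMDC EV libraries. The 9 epithelial marker miRNAs held 22.6% to 29.9% of counts in Colon EV and 0.377% to 0.795% in BMDC EV. The 7 haematopoietic markers held 0.514% to 1.19% and 30.7% to 32.3%, so the source labels matched the epithelial and haematopoietic markers. The 4 muscle markers held 0.1182% to 0.1785% in Colon EV and 0.0059% to 0.0169% in BMDC EV. Higher in BMDC EV was the liver or serum marker, at 0.0570% to 0.0801% against 0.0071% to 0.0138% in Colon EV. The 3 red blood cell markers held 0.0058% to 0.0131% in BMDC EV and 0% to 0.0052% in Colon EV. Whether serum in the medium added to these counts was not tested. In such bulk preparations, fewer vesicles of a kind and less of a miRNA per vesicle cannot be told apart, and the labels do not say whether replicates came from separate animals or cultures, so p-values measure the spread between these libraries.

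A miRNA is cut as a short duplex from an RNA hairpin and guides Argonaute to target messages, chiefly through its seed, bases 2 to 8. miRNA names are numbered in order of naming, so high numbers mark late entries, many of them found by deep sequencing and less often conserved or abundant than early ones such as let-7. Some late entries are mirtrons, hairpins released by splicing of a short intron in place of cutting by Drosha. The arms of a mirtron therefore begin or end at the splice sites, where introns start with GU and end with AG.

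Mature sequences were found for 114 of the 130 members in a RefSeq table for GRCm38.p6. The sequences below are those of the 5 members that held most member counts in Colon EV, with the seed in capitals.
miR-6236: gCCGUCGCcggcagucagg
miR-6240: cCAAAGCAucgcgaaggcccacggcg
miR-6538: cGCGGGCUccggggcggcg
miR-3535: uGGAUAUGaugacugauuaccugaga
miR-5126: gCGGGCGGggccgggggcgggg
In GRCm38, miR-6236 lies at chr9:110281353-110281371 on the plus strand, miR-6240 at chr5:114851973-114851998 on the plus strand and miR-5126 at chr1:84695890-84695911 on the plus strand, all 3 between annotated genes of that strand. An intron of Rnf144a holds miR-6538 (chr12:26414970-26414988, minus strand). miR-3535 lies at chr1:86352062-86352087 on the minus strand inside Gm24148, annotated as a snoRNA gene. The GC content of these sequences was 78.9% for miR-6236, 69.2% for miR-6240, 94.7% for miR-6538, 38.5% for miR-3535 and 100% for miR-5126. Whether they match ribosomal or transfer RNA was not tested, since those sequences were not used here, and their counts are reported as assigned to the miRNA names.

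The next sequences, again with the seed in capitals, are members with higher levels in BMDC EV. They are shown because several come from introns of about the length of a hairpin.
miR-1981-5p: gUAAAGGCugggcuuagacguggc
miR-7068-5p: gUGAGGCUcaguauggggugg
miR-7070-5p: gUGAGGGGagcugaggcagga
miR-3062-5p: gGAGAAUGuaguguuaccguga
miR-7012-5p: aAGGAGAGgaguuggcagggacu
miR-1306-5p: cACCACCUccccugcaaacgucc
miR-8114: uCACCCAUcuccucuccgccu
miR-1981-5p starts at the first bases of an intron of 82 bases in Marc2 (chr1:184822465-184822488, minus strand). miR-7068-5p starts an intron of 74 bases in Cherp (chr8:72470069-72470089, minus strand), and miR-7070-5p starts an intron of 86 bases in Fbxw9 (chr8:85062086-85062106, plus strand). miR-3062-5p lies within an intron of 97 bases in Pfas, an enzyme gene of purine synthesis (chr11:68990638-68990659, minus strand), and miR-7012-5p within one of 84 bases in Dennd4b (chr3:90270154-90270176, plus strand). miR-1306-5p lies in an exon of Dgcr8, the gene of Drosha's partner protein (chr16:18284288-18284310, minus strand). miR-8114 lies in an exon of Glul, the glutamine synthetase gene (chr1:153899989-153900009, plus strand).

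Most members were scarce. The summed count was under 10 for 52 members, from 10 to under 100 for 61, from 100 to under 1000 for 12 and 1000 or over for 5. The median member had a summed count of 12.9, against 82.3 for the 330 other names (numbers under 1000 and let-7) that met the same minimum. In each library a member was called detected at a rounded count of at least 1. By that measure 88, 77 and 74 members were detected in the 3 Colon EV libraries (mean 79.7 ± 7.37, SD, n = 3) and 92, 71 and 94 in the BMDC EV libraries (85.7 ± 12.7, SD, n = 3). These ranges overlapped.

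Depth differed between the libraries, and it was therefore set equal. The number expected at 83980 counts, the smallest total, was 42.7, 54.2 and 57.0 in Colon EV and 87.2, 71.0 and 83.6 in BMDC EV. At equal depth every BMDC EV library thus held more members than every Colon EV library, and the deepest library, Colon EV 1, held the fewest. The other names showed the same order with a smaller gap, with 238.9 to 243.4 in Colon EV and from 254.0 to 264.3 in BMDC EV. Both sets were chosen by counts summed over libraries of unequal depth. A name found in a single source could therefore enter at a lower level from Colon EV. How far this choice moved either gap was not tested.

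**Figure D1:**
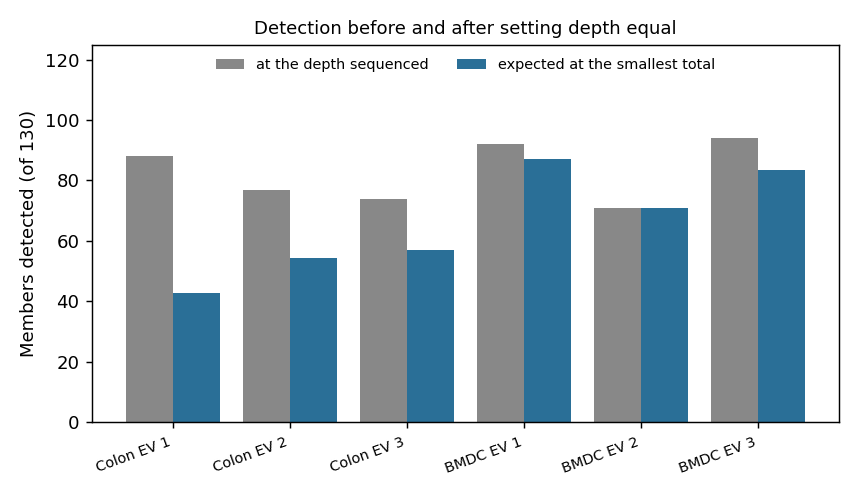
Number of the 130 members detected in each library, at the depth sequenced (grey bars) and the number expected when every library is reduced to the smallest total (blue bars). The grey bars of the sources overlap, and the blue bars run from 42.7 to 57.0 in Colon EV and from 71.0 to 87.2 in BMDC EV.

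The pooled share of the members, the percent of a library's counts that they held together, was 2.44%, 4.55% and 4.77% in Colon EV (3.92 ± 1.29, SD, n = 3) and 1.64%, 1.63% and 1.23% in BMDC EV (1.5 ± 0.231, SD, n = 3). All Colon EV libraries were above all BMDC EV libraries. The 4 members miR-6236, miR-6240, miR-3535 and miR-6538 made up most of the Colon EV share. They held 2.24%, 4.20% and 4.35% of Colon EV counts and 0.522%, 0.451% and 0.266% of BMDC EV counts. The remaining members held 0.207%, 0.354% and 0.423% in Colon EV (0.328 ± 0.111, SD, n = 3) and 1.11%, 1.17% and 0.964% in BMDC EV (1.08 ± 0.108, SD, n = 3). The order of the sources was therefore opposite with and without these 4 members, a split chosen after their values were seen. Members with a summed count under 100 held 0.0838 ± 0.0269% of Colon EV counts and 0.349 ± 0.0520% of BMDC EV counts (SD, n = 3 each).

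**Figure D2:**
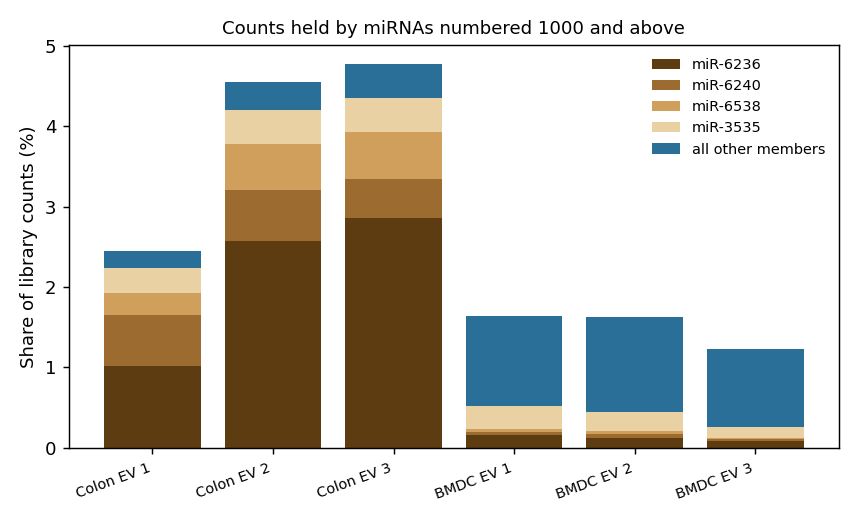
Stacked bars of the percent of each library's counts held by the 130 members, with the 4 highest in brown shades and all others in blue. miR-6236 alone ran from 1.02% to 2.86% in Colon EV and from 0.0911% to 0.163% in BMDC EV, while the blue part was between 0.964% and 1.17% in BMDC EV and at most 0.423% in Colon EV.

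The spread over members also differed between the sources. In Colon EV, miR-6236 held 50.6% of all member counts, 4 members held 91.7% and the same number was enough for 90%. In BMDC EV the leading member, miR-1981-5p, held 15.4%, and 39 members were needed for 90%. By the mean over the 3 libraries of CPM, a count scaled to library size, 99 members were higher in BMDC EV and 31 in Colon EV. Most other names with a sequence were also higher in BMDC EV. They were 91 of 131 in introns away from the ends, 42 of 69 in exons and 50 of 84 between genes. At intron ends they were 4 of 4, and in snoRNA or scaRNA genes 2 of 4. The members with numbers from 6000 to under 7000, which include miR-6236, miR-6240 and miR-6538, held 3.25% of counts in Colon EV and 0.310% in BMDC EV, whereas those from 1000 to under 2000 held 0.0743% and 0.489%. Among the 35 members numbered from 7000 to under 8000, many of them in introns, 30 had the higher mean CPM in BMDC EV, and the group held 0.0119% and 0.120%.

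The left-out numbers had a summed share of 0.961 ± 0.290% in Colon EV and 5.67 ± 1.95% in BMDC EV (SD, n = 3 each), so the pooled share of all names from 1000 upward would be higher in BMDC EV. That order rested on miR-5121, which held 0.662 ± 0.217% and 5.57 ± 1.94%, since the other left-out rows held 0.299 ± 0.0738% in Colon EV and 0.0959 ± 0.0188% in BMDC EV (SD, n = 3 each). Values that are not whole numbers, which can arise when a read is divided between similar entries, made up 87.8% to 96.8% of member counts in Colon EV libraries and 43.1% to 50.6% in BMDC EV libraries. For the other names they made up 96.2% of all counts and at least 92.2% in each library. In every library the members were thus below the other names, and far below them in BMDC EV. Of the 130 members, 57 had whole values in every library, against 80 of the 330 other names. How the division of reads moved the levels of single members was not tested.

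Reproducibility was first read as detection in all 3 libraries of a source. In Colon EV, 64 members (49.2%) were detected in 3 libraries, 16 in 2, 15 in 1 and 35 in none. In BMDC EV, 51 (39.2%) were detected in 3, 43 in 2, 18 in 1 and 18 in none. At equal depth the expected numbers in all 3 libraries were 29.1 in Colon EV and 46.5 in BMDC EV, so the higher Colon EV count went with its deeper libraries. The effect of the choice of members by summed count was not tested here either. BMDC EV 2 was the smallest library, and without it 78 members were detected in both remaining BMDC EV libraries. Other names were detected in all 3 libraries more often, at 76.1% in Colon EV and 68.2% in BMDC EV, but not in every band of summed count. For summed counts from 5 to 19 the shares in Colon EV were 27.7% of 83 members and 32.5% of 80 other names, and in BMDC EV 13.3% and 16.3%. From 20 to 99 counts, 80.0% of 30 members were in all 3 libraries of either source, against 75.5% and 63.8% of 94 other names in Colon EV and BMDC EV. From 100 counts upward, 17 of 17 members were in all 3 Colon EV libraries and 16 of 17 in all 3 BMDC EV libraries. Of 156 other names in this band, 98.7% and 97.4% were.

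**Figure D3:**
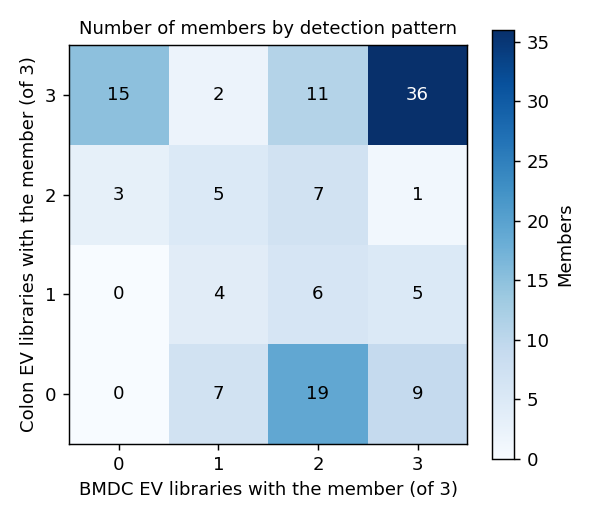
Number of members by how many Colon EV libraries (vertical axis, 0 to 3) and BMDC EV libraries (horizontal axis, 0 to 3) detected them. The largest cell holds the 36 members in all 6 libraries, and the corners hold 15 members in all Colon EV and no BMDC EV library and 9 in all BMDC EV and no Colon EV library.

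Detection in all 6 libraries held for 36 members, and 7 members were in 1 library only. There were 15 members in all 3 Colon EV libraries and in 0 BMDC EV libraries, against 7.01% of the 471 miRNAs with a summed count of at least 5. There were 9 members in all 3 BMDC EV libraries and in 0 Colon EV libraries, against 3.82% of the 471. The BMDC EV group was miR-7068-5p, miR-5107-5p, miR-7070-5p, miR-6981-5p, miR-7062-5p, miR-7235-3p, miR-7676-3p, miR-7676-5p and miR-5622-3p. Their pooled BMDC EV level ran from 21 to 107 CPM, and 3 counts over all Colon EV libraries together, the limit that a count of 0 allows, come to 2.85 CPM. The deposited counts of miR-7068-5p were 18.5, 6 and 17 in BMDC EV and 0 in each Colon EV library, so it was at least 37.4-fold higher in BMDC EV against that limit. For miR-7070-5p the counts were 15, 7.33 and 4.33 against 0, at least 24-fold higher. All 9 had a pooled BMDC EV level above that limit, which the minimum summed count made certain at the depth of these libraries. miR-7676-5p had a value of 0.5 in 1 Colon EV library, which rounds to 0.

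The Colon EV group was miR-3069-5p, miR-3095-3p, miR-1247-5p, miR-3084-5p, miR-1949, miR-7684-5p, miR-6917-3p, miR-1948-5p, miR-6909-5p, miR-6418-3p, miR-6238, miR-7118-3p, miR-7657-5p, miR-3103-3p and miR-8104. Here the limit over the BMDC EV libraries was 7.71 CPM, and 5 of the 15 members had a pooled Colon EV level below it, so their absence from BMDC EV was not detectable at this depth. The minimum of 5 counts, all in Colon EV, comes to 4.76 CPM, so this contrast with the BMDC EV group follows from depth. miR-3095-3p had counts of 25, 12 and 6 in Colon EV and 0 in each BMDC EV library, at least 5.31-fold higher. miR-1247-5p had 9, 8 and 11 against 0, at least 3.46-fold higher. miR-3069-5p and miR-3084-5p, which match annotated scaRNA and snoRNA genes, had counts of 20.5, 16 and 9 and of 9.25, 4.33 and 4 in Colon EV, each with a single value of 0.5 in BMDC EV. These limits cover counting error only.

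Levels of the 130 members, as log2(CPM + 1), were compared between pairs of libraries. Between Colon EV libraries, Pearson's r was 0.901 to 0.923 and Spearman's rho 0.810 to 0.845. Between BMDC EV libraries r was 0.553 to 0.683 and rho 0.540 to 0.649. Across sources r was 0.367 to 0.428 and rho 0.213 to 0.328. Without the 4 highest members r remained at 0.845 to 0.880 within Colon EV and 0.504 to 0.646 within BMDC EV. Over the 24 members with enough counts for the test below, r was 0.980 to 0.994 within Colon EV and 0.724 to 0.912 within BMDC EV. Across sources it was 0.27 to 0.44 for these 24. These values describe points that share their libraries. Depth was lower in most BMDC EV libraries, and its part in these values was not tested.

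The sources were compared with edgeR's quasi-likelihood test over 220 miRNAs, those that reached 10 counts in 3 or more libraries. Only 24 members met that filter, and the other 106 were not tested. Among the 24, 14 were called higher in BMDC EV and 8 higher in Colon EV at a Benjamini-Hochberg adjusted p under 0.05, where 40.5% and 36.4% of all 220 were called in these directions and 76.8% in either. The median log2 fold change (BMDC EV over Colon EV) was 2.08 over the 24 members, with or without miR-5107-5p set to its lower bound, and 0.19 over all 220. Of the 24, 6 passed the filter through BMDC EV alone, whose libraries were mostly smaller, so these had to differ. For the 2 that passed through Colon EV alone, in mostly deeper libraries, the filter favoured a difference but did not force it. The counts of calls therefore support nothing beyond themselves. At least 10 counts in all 6 libraries were found for 11 members, and of these 5 were higher in BMDC EV, 5 were higher in Colon EV and 1 was not called. Every BMDC EV library was above every Colon EV library for 13 of the 24 (42.7% over all 220), and the reverse held for 8 (39.1%).

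**Figure D4:**
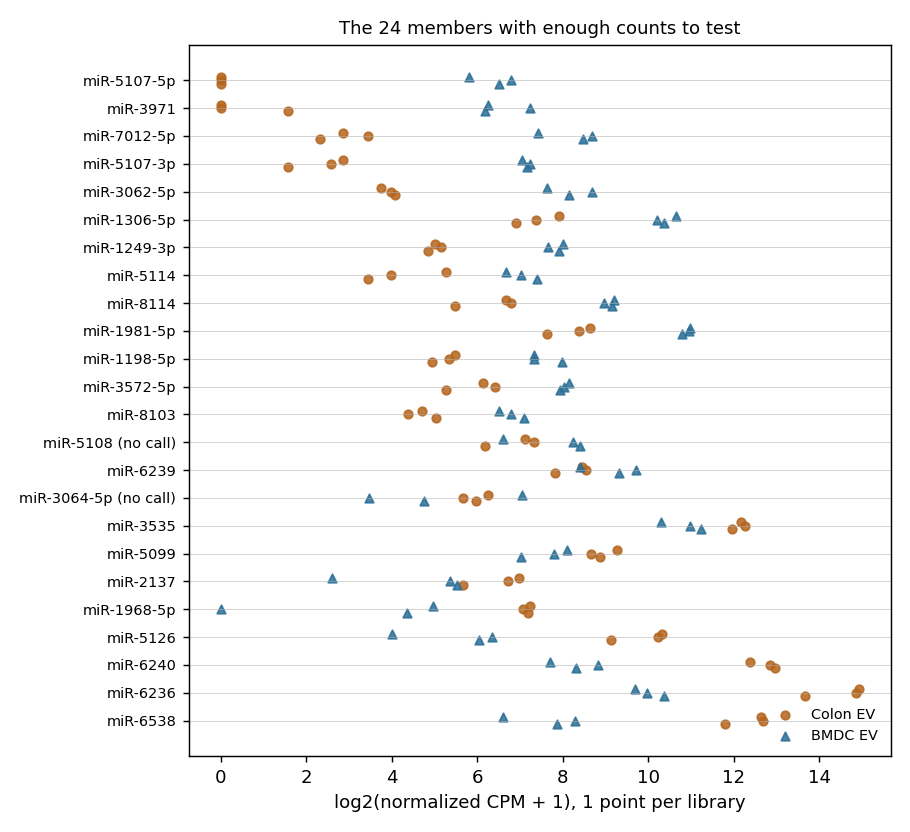
Level of each of the 24 tested members in each library as log2(normalized CPM + 1), with circles for Colon EV and triangles for BMDC EV, ordered by fold change. The circles lie right of the triangles for the bottom 8 members, from miR-6538 to miR-3535, and left of them for the top 13, while the symbols of miR-5108, miR-6239 and miR-3064-5p overlap.

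miR-6236 was the most abundant member. Its deposited counts were 6604, 5974 and 4952 in Colon EV and 206, 100 and 163 in BMDC EV, so all Colon EV libraries were far above all BMDC EV libraries despite their unequal totals. It was 23.4-fold higher in Colon EV, with normalized levels of 24630 ± 9997 and 1052 ± 260 CPM (SD, n = 3 each; log2 fold change −4.55, SE 0.34, edgeR quasi-likelihood test with Benjamini-Hochberg adjustment, adjusted p = 6.80e-10). Its share in Colon EV 1, 1.02%, was below the 2.57% and 2.86% of the other Colon EV libraries, and without Colon EV 1 the log2 fold change was −5.14.

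miR-6240 had counts of 4031, 1489 and 848 in Colon EV and 49.3, 45.3 and 41.1 in BMDC EV. The groups did not overlap, and it was 21.9-fold higher in Colon EV (log2 fold change −4.45, SE 0.30, edgeR adjusted p = 1.78e-10 by Benjamini-Hochberg). It shared its seed, CAAAGCA, with miR-330-3p, the only match between a member and another name at this minimum. miR-6538 had counts of 1807, 1320 and 1009 against 36.2, 30.7 and 18.9 and was 27.0-fold higher in Colon EV (log2 fold change −4.76, SE 0.36, edgeR adjusted p = 1.17e-09 by Benjamini-Hochberg). miR-5126 had counts of 284, 242 and 204 against 10.4, 7.82 and 3.48, with no overlap, and was 20.5-fold higher in Colon EV (log2 fold change −4.36, SE 0.49, edgeR adjusted p = 2.49e-07 by Benjamini-Hochberg). BMDC EV 3 was the lowest library for all 3, and without it the log2 fold changes were −3.76 for miR-6240, −3.95 for miR-6538 and −3.41 for miR-5126. Without Colon EV 1 that of miR-5126 was −4.95. All of these fits kept the calls.

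miR-3535, the member inside a snoRNA gene, was abundant in both sources. Counts of 1994, 987 and 731 in Colon EV stood against 370, 203 and 252 in BMDC EV, and no library of one source reached the other after normalization. The difference, 2.37-fold higher in Colon EV, was much smaller than for the members above (log2 fold change −1.24, SE 0.24, edgeR adjusted p = 0.000142 by Benjamini-Hochberg). Without BMDC EV 3 it came close to the threshold, at a log2 fold change of −0.59 and an edgeR adjusted p of 0.0490 (Benjamini-Hochberg). The remaining calls toward Colon EV were miR-1968-5p, miR-2137 and miR-5099. miR-1968-5p had 73, 27 and 24 counts against 3, 0 and 6, lies in an intron of Grtp1 and was 7.29-fold higher in Colon EV (edgeR adjusted p = 0.000282, Benjamini-Hochberg). Its log2 fold change was −2.87, and −2.02 without BMDC EV 2, the library at 0. Both miR-1968-5p and miR-2137 passed the count filter through Colon EV alone. miR-2137 had 25.1, 21 and 20.2 counts against 7.25, 4.42 and 1.25, and its log2 fold change of −1.66 was −0.60 without BMDC EV 3. The edgeR adjusted p of 0.0285 (Benjamini-Hochberg) became 0.0764, 0.0744 and 0.380 without BMDC EV 1, 2 and 3 in turn. miR-5099 had 234, 82.5 and 97.5 counts against 20, 21.8 and 54.0, and its call was lost without BMDC EV 1 or BMDC EV 2, at edgeR adjusted p = 0.166 and 0.0663 (Benjamini-Hochberg), and its log2 fold change of −1.24 was −0.61 without BMDC EV 1. With scaling by library totals alone, miR-2137 and miR-5099 were not called either.

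Toward BMDC EV the most abundant member was miR-1981-5p, the arm that opens its Marc2 intron. Its counts were 100, 67 and 63 in Colon EV and 272, 198 and 398 in BMDC EV, higher in every BMDC EV library although these libraries were mostly smaller. It was 6.35-fold higher in BMDC EV, at 1916 ± 134 against 309 ± 101 normalized CPM (SD, n = 3 each; log2 fold change 2.67, SE 0.29, edgeR adjusted p = 1.36e-07 by Benjamini-Hochberg). The 3p arm of the same hairpin had 8, 6.5 and 5 counts in Colon EV and 9, 6.25 and 26.5 in BMDC EV, and the 5p arm held 92.2% and 95.4% of the hairpin's counts.

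miR-1306-5p, from the Dgcr8 exon, had counts of 60, 33 and 38 against 204, 117 and 321, with no overlap. It was 8.16-fold higher in BMDC EV (log2 fold change 3.03, SE 0.32, edgeR adjusted p = 1.04e-07 by Benjamini-Hochberg). Its 5p arm held 95.6% and 96.0% of hairpin counts in Colon EV and BMDC EV, so the dominant arm was the same in both sources. miR-8114 in Glul had counts of 22, 21.5 and 16.5 against 88.5, 50 and 116 and was 6.90-fold higher in BMDC EV (log2 fold change 2.79, SE 0.41, edgeR adjusted p = 6.42e-06 by Benjamini-Hochberg; 2.10 without Colon EV 1). Other calls of this size were miR-1249-3p, miR-5114 (in an exon of Scd2, a fatty acid desaturase gene), miR-1198-5p, miR-3572-5p (in an intron of Cnot3, which encodes a deadenylase subunit) and miR-8103, all between 4.12-fold and 7.49-fold higher in BMDC EV without overlap. Of these, miR-5114 passed the count filter through BMDC EV alone, and miR-8103 was not called with no count filter (edgeR adjusted p = 0.0531, Benjamini-Hochberg). Without Colon EV 1 the log2 fold change of miR-5114 was 2.07 in place of 2.86 and that of miR-3572-5p 1.47 in place of 2.11, and without BMDC EV 3 that of miR-8103 was 2.65 in place of 2.04.

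Several members were near the floor in Colon EV. miR-3062-5p had 8, 3 and 2 counts in Colon EV and 44, 41 and 38.5 in BMDC EV, 19-fold higher in BMDC EV (log2 fold change 4.25, SE 0.52, edgeR adjusted p = 7.09e-07 by Benjamini-Hochberg). miR-7012-5p had 2, 2 and 1 against 55, 41 and 33.5 and was 47.2-fold higher in BMDC EV (log2 fold change 5.56, SE 0.62, edgeR adjusted p = 2.26e-07 by Benjamini-Hochberg). Both lie in short introns, and neither had an overlap between the sources. Without Colon EV 1 the log2 fold change of miR-7012-5p was 4.81. miR-3971 had 1 count in the Colon EV libraries together and 11, 15 and 15 in BMDC EV, a ratio of pooled CPM of 111 (95% exact interval 18.8 to 4479). miR-5107-3p had 1 count in each Colon EV library and 22.5, 15 and 26.5 in BMDC EV, a ratio of 57.6 (18.8 to 287). miR-5107-5p had none in Colon EV and 14.5, 11 and 11 in BMDC EV, at least 32.9-fold higher. These ratios and this bound scale by library totals alone, unlike the edgeR folds above, so they are not to be ranked against them. The intervals and the bound pool the libraries of each source and cover counting error only, not the spread between libraries. On the edgeR scale miR-3971 was 56.3-fold and miR-5107-3p 34.0-fold higher in BMDC EV. miR-3971, miR-5107-3p and miR-5107-5p were called at edgeR adjusted p = 4.40e-06, 1.12e-06 and 6.68e-06 (Benjamini-Hochberg). All 5 members of this paragraph passed the count filter through BMDC EV alone.

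For 3 tested members the libraries of the sources overlapped. miR-6239 had counts of 113, 74.9 and 55.9 in Colon EV and 99.1, 84.3 and 67.2 in BMDC EV, and it was called higher in BMDC EV (log2 fold change 0.94, SE 0.37, edgeR adjusted p = 0.0273 by Benjamini-Hochberg). That call was lost without any 1 of the Colon EV libraries, at edgeR adjusted p = 0.356, 0.0905 and 0.122 (Benjamini-Hochberg). With all libraries kept it was also lost with DESeq2 (adjusted p = 0.0564), with DESeq2 size factors in edgeR (0.0582), with edgeR's own filter (0.0617), with at least 5 counts in 3 libraries (0.0724) and with no filter (0.344). Without BMDC EV 3 its log2 fold change was 1.65. miR-5108 had 35.7, 31.8 and 21.8 counts against 51.5, 29.8 and 19.1 and was not called (log2 fold change 1.01, SE 0.49, edgeR adjusted p = 0.0696 by Benjamini-Hochberg), but it was without BMDC EV 2 or BMDC EV 3, at adjusted p = 0.0227 and 0.00222. Its log2 fold change was 1.85 without BMDC EV 3 and 0.40 without Colon EV 1. miR-3064-5p in Ddx5, an RNA helicase gene, had 31, 10 and 12 counts against 4.5, 1 and 25.5, and BMDC EV 3 was the high library of its source (log2 fold change 0.01, SE 0.58, edgeR adjusted p = 0.988 by Benjamini-Hochberg). Without BMDC EV 3 its log2 fold change was −1.20, and without BMDC EV 1 or BMDC EV 2 it was 0.77 and 0.87, in each case with no call.

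The positions of the mature sequences differed from those of the other names. The rule for members named no position, but the positions of the left-out numbers were not compared. Of 114 members with a sequence, 26 (22.8%) began or ended within 2 bases of an annotated intron end on their strand, against 4 of 292 other names (1.37%). The donor end held 5 and the acceptor end 21. All 5 at the donor started with GU and 15 of the 21 at the acceptor ended with AG, while 3 of the remaining 88 members started with GU and 3 ended with AG. Below are members at the acceptor end of short introns, with AG in capitals.
miR-6988-3p: ugaccucuguaucuccugccAG
miR-3572-3p: uacacuuguccuucuuuccccAG
miR-7068-3p: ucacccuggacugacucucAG
miR-6988-3p closes an intron of 82 bases in Syvn1, which encodes a ubiquitin ligase, miR-3572-3p one of 80 bases in Cnot3, and miR-7068-3p the Cherp intron that miR-7068-5p opens. A position at an intron end describes the annotation and does not show how the miRNA was made.

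In all, 30 of the 114 members (26.3%) lay in an intron of 150 bases or less, against 4 of the 292 other names. The 30 held 0.0256%, 0.0499% and 0.0577% of counts in the Colon EV libraries and 0.419%, 0.462% and 0.359% in the BMDC EV libraries. Every BMDC EV library was above every Colon EV library, and 27 of the 30 had the higher mean CPM in BMDC EV, where 99 of all 130 members did. miR-1981-5p alone, at a mean of 2244 CPM, made up most of the share of the 30 in BMDC EV. Only miR-1981-5p, miR-3572-5p, miR-3062-5p and miR-7012-5p had enough counts to be tested. The calls of the first pair are given above. The other pair passed the filter through BMDC EV alone and had to differ, so no count of calls is read for the 30.

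Members in exons, 20 in number, held 0.0396 ± 0.0153% in Colon EV and 0.282 ± 0.0304% in BMDC EV (SD, n = 3 each). miR-1306-5p and miR-8114, at means of 1599 and 648 CPM, made up most of the BMDC EV share. Of the 20, 16 had the higher mean CPM in BMDC EV. The opposite order of shares held for the 17 members between genes, at 2.87 ± 0.998% and 0.317 ± 0.0957%. That order rested on miR-6236 and miR-6240, at means of 2.15% and 0.58% in Colon EV. By number, 13 of the 17 had the higher mean CPM in BMDC EV. The 47 in introns away from the ends held 0.528 ± 0.183% and 0.290 ± 0.0679%, and this class, which includes miR-6538, overlapped between the sources. Of the 47, 38 had the higher mean CPM in BMDC EV. The 4 in snoRNA or scaRNA genes, miR-3535, miR-3069-5p, miR-3069-3p and miR-3084-5p, held 0.393 ± 0.0679% and 0.227 ± 0.0784%, without overlap. SnoRNAs and scaRNAs guide chemical changes in ribosomal and spliceosomal RNAs.

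**Figure D5:**
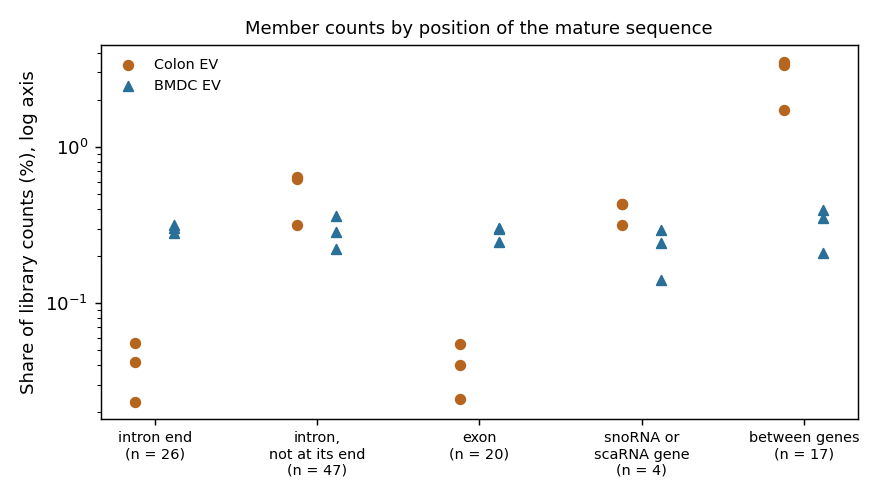
Percent of each library's counts (log axis) held by members in 5 classes of position, with circles for Colon EV and triangles for BMDC EV. Triangles lie above circles at intron ends (0.300% against 0.0402% on average) and in exons, and circles lie above triangles between genes (2.87% against 0.317%). miR-1981-5p made up most of the intron-end share in BMDC EV, and miR-6236 most of the between-genes share in Colon EV. Of the 17 members between genes, 13 had the higher mean CPM in BMDC EV.

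Members were also richer in G and C. Their median GC content was 55.5%, against 47.8% for the other names, and 10 members (8.77%) had a GC content of 70% or more, against 5 other names (1.71%). The 10 GC-rich members held 1.35%, 3.25% and 3.58% of counts in Colon EV and 0.224%, 0.179% and 0.112% in BMDC EV. Those that could be tested were miR-6236, miR-6538, miR-5126 and miR-2137, and miR-2137 passed the filter through Colon EV alone, so no count of calls is read for the group. Of the 10, 5 had the higher mean CPM in each source, so the share rested on the abundant ones.

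Few members shared a seed. Among the 114, miR-1943-5p and miR-6967-5p shared AGGGAGG, miR-6960-5p and miR-8104 shared AGGAUGA, and 109 shared theirs with no other member and no other name at this minimum. Counts of miR-1943-5p were 6.25, 4 and 1 in Colon EV and 13, 0 and 6 in BMDC EV.
miR-1943-5p: aAGGGAGGaucugggcaccugga
miR-6967-5p: cAGGGAGGgauaaagaccagu
Both arms were members for 12 hairpins. The 5p arm of miR-3572 held 81.0% of hairpin counts in Colon EV and 87.0% in BMDC EV. In the miR-3069 hairpin the 5p arm held 82.0% in Colon EV and 9.09% in BMDC EV, but the BMDC EV value rested on counts of 4, 1 and 0 for the 3p arm and a single 0.5 for the 5p arm.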

How the data were processed

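Small RNA of EVs was isolated with a miRNeasy Micro kit and sequenced after QIAseq miRNA library preparation, with 3 Colon EV and 3 BMDC EV libraries. The values deposited by the authors are estimated counts of each mature miRNA, without normalization and not always whole. The submitters' processing notes name STAR 2.7.6a, featureCounts 1.6.3, DESeq2 1.30.1 and GRCm38 (mm10), with no role or order. Use of molecular identifiers is not given in the sources used here, so limits cover counting error only, with 3 counts equal to 35.7 CPM in the smallest library and 4.65 CPM in the largest.

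Groups came from the sample labels, and 0 columns belonged to no sample. Members and lists were chosen with earlier results of these data known. Counts were rounded to whole numbers for detection and tests, and shares used the deposited values. In R 4.3.3, edgeR 4.0.16 was fitted to all miRNAs that reached 10 counts in 3 or more libraries (TMM, quasi-likelihood test, Benjamini-Hochberg adjustment), and it was tested on simulated data first. Means of normalized CPM used TMM. Expected detection at equal depth was computed from the hypergeometric distribution. Mature sequences (RefSeq, GRCm38.p6) were placed on GRCm38 with GENCODE M21 genes of the same strand, taking the shortest intron that holds a sequence. Named miRNAs were the tested members, the 10 with the highest summed count, those in all libraries of one source alone, those sharing a seed and those in another noncoding RNA gene. Other names were chosen after their values were seen. Alternatives were DESeq2 1.42.0, other scalings and filters, a replicate block, other minimums for detection, other denominators and memberships, and leaving out each library. Alternatives added after seeing the data left out the 4 highest members, left out members with values that are not whole, or computed TMM without members. Figures used matplotlib 3.10.9 in Python 3.11.15. Sequences of 16 members and ribosomal and transfer RNA were not used here, nor were the other experiments of the study.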

Additional observations from a re-analysis of the deposited data

How the results depend on the processing

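The number of calls among members depended most on the count filter, which sets how many are tested. With no filter 46 of 130 members were called (33 higher in BMDC EV, 13 in Colon EV), and 231 of all 771 miRNAs (117 and 114). With at least 5 counts in 3 libraries 34 of 42 members were called (23 and 11), and 202 of all 275 miRNAs (106 and 96). The main fit called 22 of 24 members (14 and 8), and 169 of all 220 miRNAs (89 and 80). DESeq2, its size factors in edgeR, library totals alone, edgeR's own filter and TMM without members gave 21 to 23 calls of 24 or 25 members. Over all miRNAs these fits called 168 to 175 of 220 or 222. Library totals alone moved the median log2 fold change of all tested miRNAs from 0.19 to 0.64 and gave 15 and 6 calls (105 and 70 over all 220). Leaving out 1 library gave 14 to 19 calls (8 to 13 and 6 to 7) of 18 to 22 members, and 133 to 150 calls of 187 to 195 miRNAs. The lowest was 14 of 18 members without BMDC EV 1, where 133 of all 189 miRNAs were called. Without a BMDC EV library, a member scarce in Colon EV can no longer pass the filter. The replicate block gave 22 calls of 24 members (14 and 8), and 164 of all 220 miRNAs. No pairing by number was seen, since deviations of same-numbered libraries correlated at −0.11, −0.03 and −0.11, and those of differently numbered ones at −0.02 to 0.13. So few libraries per source cannot exclude a shared preparation.

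The mean number detected fell from 79.7 to 44.3 and 19 in Colon EV at minimums of 3 and 10 counts, and from 85.7 to 68.7 and 29.3 in BMDC EV. At equal depth it was 51.3 in Colon EV and 80.6 in BMDC EV. Leaving out 1 library gave 75.5 to 82.5 and 81.5 to 93.0. Members in all Colon EV libraries fell from 64 to 30 at a minimum of 3 counts and to 29.1 at equal depth, with 66 to 72 in the remaining libraries when 1 was left out. For BMDC EV the last range was 59 to 78, the highest without BMDC EV 2.

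The pooled share was 10.3% in Colon EV and 4.46% in BMDC EV of the total without the 10 most abundant miRNAs (difference, BMDC EV minus Colon EV, −5.85 percentage points, against −2.43). Without miR-6236 the Colon EV share was 1.77% and the difference −0.40. The difference turned to 0.756 without the 4 highest members (0.328% and 1.08%), to 0.281 without members whose values are not whole (0.0664% and 0.348%) and to 2.28 with the left-out numbers added (BMDC EV 7.17%), nearly all of it miR-5121. Leaving out 1 library gave 3.50% to 4.66% in Colon EV, 1.43% to 1.63% in BMDC EV and differences of −3.17 to −2.0.

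Of 310 fold changes of tested members under alternatives, 282 kept their direction and side of the threshold, 16 lost the call (miR-6239, miR-2137, miR-5099, miR-8103) and 3 gained one (miR-5108). The 9 that turned direction were all of miR-3064-5p, at −0.26 with DESeq2, −0.16 with its size factors, −0.54 with no filter, −0.26 with at least 5 counts, −0.50 with the block and −1.20 to −0.12 in 4 fits with 1 library left out (the fits with 1 left out ran from −1.20 to 0.87). Causes were not tested. Most members had under 20 summed counts, and the number detected changed with both depth and the minimum count.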
